A study of Rattus norvegicus with 40 samples.

Results

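The genes described here encode the 2 large groups of conjugating enzymes of the liver, the UDP-glucuronosyltransferases (Ugt) and the cytosolic sulfotransferases (Sult). Every gene in the count files whose symbol starts with Ugt or Sult followed by a digit was taken, which gave 32 of 17337 genes, 18 of them Ugt and 14 Sult genes. RNA was sequenced from the livers of 24 male Fischer 344 rats as 40 libraries. Rats were 7 weeks old at the start and received N-nitrosodiethylamine (DEN), a carcinogen that hepatocytes activate and that gives rise to liver tumors, by weekly intra-peritoneal injection at 50 mg/kg. DEN rats were sampled after 8 weeks or 14 weeks of injections, or at 20 weeks, when 14 weeks of injections had been followed by 6 weeks without DEN. Non-tumoral tissue (NT) was taken at all 3 times, and 2 tumor nodules per DEN rat were taken at 14 and 20 weeks. Rats of the same age that received no DEN (no DEN) were the controls at each time, and whether they received the carrier oil is not given in the sources used here. Each of the 8 groups holds 4 rats, and a tumor value of a rat is the mean of its 2 nodules unless stated. Rats numbered F (2 at 8 weeks, 1 at 14 weeks and 1 at 20 weeks) occur in the DEN groups alone, all other rats are numbered H, and what the letters stand for is not given in the sources used here.

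Glucuronosyltransferases sit in the endoplasmic reticulum and attach glucuronic acid from UDP-glucuronate to bilirubin, steroids, phenols and drugs, which then leave in bile or urine. Sulfotransferases work in the cytosol and move a sulfonate group from the donor PAPS onto steroids, thyroid hormones, bile acids and phenols. Conjugation usually inactivates its substrate, but sulfonation of some N-hydroxy arylamines and benzylic alcohols yields reactive esters. The Ugt1a enzymes come from a single locus in which each isoform has a first exon of its own joined to the same downstream exons, whereas Ugt2 and Sult enzymes come from separate genes, many of them in tandem clusters.

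Levels are given as CPM, the count of a gene scaled to a common library size, after TMM scaling, which corrects library totals for a few abundant genes. They are not per length, so only the same gene is compared between groups. A pair of reads was counted only where it lay inside the exons of 1 gene and in 1 place of the genome. Pairs inside the exons that the Ugt1a isoforms share were therefore dropped as ambiguous, and the Ugt1a values rest on pairs that touch an isoform's own exon. Pairs that aligned in several places were not counted, and how many of these belong to members was not measured. Libraries held 20528515 to 160622633 counted pairs (median 30477421), and ambiguous pairs made up 0.816% to 1.56% of a library's pairs. The Ugt and Sult genes together took 0.241% to 0.415% of the counted pairs.

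The tissue of all groups held hepatocyte markers, whose summed level (6 of 6 genes, among them albumin) was 235981 to 268672 CPM in no DEN liver at 14 weeks, 147179 to 190264 CPM in NT and 129018 to 158475 CPM in tumors. At 20 weeks the same sum was 242862 to 280894 CPM in no DEN liver, 182922 to 250814 CPM in NT and 121339 to 185554 CPM in tumors. Gene by gene, Alb, Ttr, Serpina1 and Hnf4a fell and Apoa1 rose in NT at 14 weeks, 0 rose and 2 fell at 8 weeks, 1 rose and 1 fell at 20 weeks, and 1 rose and 4 fell in tumors at both weeks. Cholangiocyte markers (4 of 5 genes found) moved the other way, from 16.3 to 23.7 CPM in no DEN liver at 14 weeks to 38.3 to 87.6 CPM in NT and 62.7 to 115 CPM in tumors, and all 4 rose in both tissues at 14 and at 20 weeks. Of 5 sinusoidal endothelial markers (4 found) 3 rose in all 5 comparisons. Of 6 stellate cell and fibroblast markers, 4 rose in NT at 8 weeks, and in NT at 14 weeks 4 rose and 1 (Pdgfrb) fell, with Col1a2 at 0 in every library. In NT at 20 weeks 3 of them rose and 0 fell, and in tumors 4 rose and 0 fell at both weeks. Of 6 lymphocyte markers 5 rose in NT at 8 weeks, 2 at 14 weeks and 1 at 20 weeks, and in tumors 3 rose at 14 weeks and 2 at 20 weeks. Of 5 macrophage markers Cd68 was the 1 that rose in all 5 comparisons, with a sum of 254 to 378 CPM in no DEN liver at 14 weeks, 233 to 623 CPM in NT and 237 to 551 CPM in tumors. The sum of the 4 markers of enterocytes and kidney tubules was 172 to 213 CPM in no DEN liver at 14 weeks, 21.2 to 61.4 CPM in NT and 16 to 52.8 CPM in tumors, where Cdh17 fell in all 5 comparisons and Vil1 rose in the 4 in which it could be tested. The part of these shifts in the results below was not tested, and in bulk RNA fewer cells of a type and less RNA per cell cannot be told apart.

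DEN moved the family in both directions at once. Differences were tested by the quasi-likelihood method of edgeR on the counts, the 2 nodules of a rat being summed. A gene was called where its log2 fold change reached 0.5 in either direction and its p, adjusted after Benjamini and Hochberg over all genes tested, did not exceed 0.05. At 8 weeks 8 of 21 tested members were called in NT against no DEN liver, 3 up and 5 down, where 21.7% of all tested genes were called (16.5% up and 5.21% down). At 14 weeks 14 of 24 were called in NT, 7 up and 7 down (32.6% of all genes, 22.8% up and 9.85% down), and at 20 weeks 10 of 24, 5 up and 5 down (18.1% of all genes, 14.3% up and 3.82% down). In tumors 14 of 25 were called at 14 weeks, 6 up and 8 down (39.1% of all genes, 23.9% up and 15.2% down), and 18 of 25 at 20 weeks, 7 up and 11 down (38.8% of all genes, 23.6% up and 15.2% down). At a log2 size of 1 and an adjusted p of 0.01 the members called in NT were 4, 10 and 4 at the 3 times, where 7.91%, 15.2% and 5.22% of all genes were called. The members called were thus 38.1%, 58.3% and 41.7% of those tested in NT at 8, 14 and 20 weeks and 56.0% and 72.0% in tumors, a description and not a test. Over all tested members, called or not, the median log2 fold change was 0.02, 0.24 and -0.01 in NT and -0.02 and -0.57 in tumors, where that of all genes was -0.01, 0.02, 0.02, 0.00 and 0.01. Over the 5 comparisons 20 members were called at least once, 9 of them upward and 11 downward, and none in both directions. Ugt1a6, Ugt1a7c and Sult2a6 were up in all 5 and Sult1c3, Sult1e1 and Sult2a1 were down in all 5. A gene was tested only where at least 4 rats of a comparison reached the low-count filter, about 10 counts in a library of median size. Sult2a2 and Ugt2b7 in all 4 comparisons that tested them, Ugt1a7c in 4 of 5, Ugt1a2 in NT at 14 and 20 weeks and Sult5a1 in tumors at 20 weeks reached it in all 4 DEN rats but not in all 4 no DEN rats, so they were tested there only through the group in which they were high, and their number among the upward calls is no support. Over members that reached the filter in each group on its own, 7 of 19, 10 of 19 and 7 of 20 were called in NT at 8, 14 and 20 weeks and 11 of 21 and 15 of 22 in tumors, which is 36.8%, 52.6%, 35%, 52.4% and 68.2% beside 19.4%, 29%, 16%, 35.7% and 35.7% of all such genes. Of these calls 2, 3, 2, 3 and 4 were up, and at least once 6 members were up and 11 down. With library totals in place of TMM, an alternative chosen after seeing the data, the median log2 fold change of all genes became 0.19 to 0.57 and the split became 5 up and 2 down in NT at 8 weeks, 13 and 4 at 14 weeks, 6 and 4 at 20 weeks, and 12 and 5 and 10 and 7 in tumors at 14 and 20 weeks. All genes shifted the same way, with 23%, 43.9% and 23.3% called up and 1.72%, 2.67% and 1.51% down in NT, and 52.3% and 48.5% up and 3.73% and 4.26% down in tumors. Under that scaling Sult1c3 was no longer called in NT at 8 and 20 weeks, nor Sult1e1 in NT at 8 weeks.

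**Figure D1:**
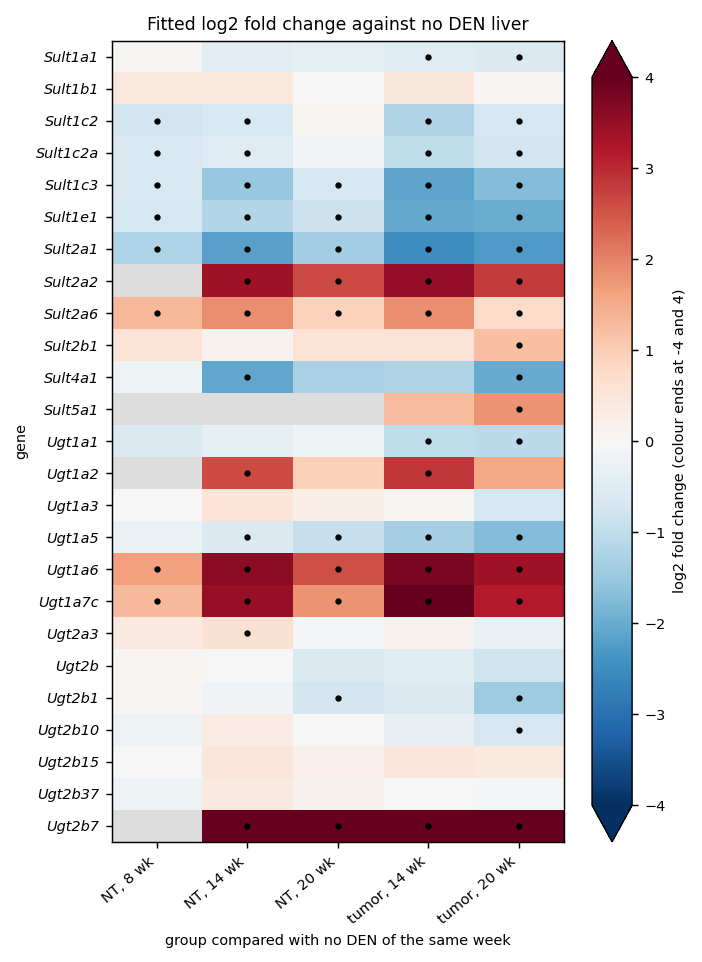
Fitted log2 fold change (colour) of the 25 tested Ugt and Sult genes (rows) in NT and tumors against no DEN liver of the same week (columns), n = 4 rats a group, where dots mark called genes and grey cells genes with too few counts. Ugt1a6, Ugt1a7c and Sult2a6 are up and Sult1c3, Sult1e1 and Sult2a1 down in all 5 columns, and Ugt2b7 runs off the scale, and its fitted value depends on the prior count because untreated liver held almost no reads.

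Ugt1a6, which conjugates small planar phenols, rose in every DEN group. It stood at 7.69, 11.8, 13.8 and 19.5 CPM in the 4 no DEN rats at 8 weeks and at 33.0, 33.7, 48.8 and 49.8 CPM in NT. At 14 weeks the no DEN rats had 14.7, 15.3, 15.6 and 16.9 CPM, NT had 83.2, 178, 238 and 253 CPM, and tumors had 40.4, 252, 263 and 304 CPM. At 20 weeks the no DEN rats had 19.0, 20.4, 20.7 and 26 CPM, NT had 74.6, 96.3, 167 and 175 CPM, and tumors had 147, 164, 289 and 304 CPM. The DEN groups did not overlap with no DEN liver at any week, and the rats numbered F were the lowest of each of the 5 DEN groups. The log2 fold change of Ugt1a6 in NT was 1.66 ± 0.264 (SE, adjusted p = 0.00153) at 8 weeks, 3.61 ± 0.348 (adjusted p = 0.000107) at 14 weeks and 2.58 ± 0.294 (adjusted p = 0.00104) at 20 weeks. In tumors it was 3.76 ± 0.528 (adjusted p = 0.000423) at 14 weeks and 3.39 ± 0.254 (adjusted p = 2.01e-05) at 20 weeks, which is 13.5-fold and 10.5-fold. Groups without overlap were common among all tested genes, with 34%, 50.6% and 28.3% of genes in NT at 8, 14 and 20 weeks and 51.4% and 48.9% in tumors.

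Ugt1a7c, an isoform of the same locus that acts on bulky phenols, rose in every DEN group too. It had 0.182 to 0.578 CPM (5 to 14 counts) in no DEN liver at 14 weeks, 1.48, 3.51, 4.89 and 5.29 CPM in NT and 1.72, 5.32, 6.83 and 8.13 CPM in tumors, with rat F06 lowest in both. At 20 weeks it had 0.331 to 0.790 CPM in no DEN liver, 0.906 to 2.92 CPM in NT and 3.38 to 6.95 CPM in tumors. Its log2 fold change was 1.30 ± 0.290 at 8 weeks, 3.47 ± 0.482 at 14 weeks and 1.81 ± 0.482 at 20 weeks in NT (edgeR, adjusted p = 0.00595, 0.00028 and 0.0207), and 3.97 ± 0.548 and 3.17 ± 0.381 in tumors at 14 and 20 weeks. The call at 8 weeks was lost with all 8 groups in the fit (adjusted p = 0.0842), and that in NT at 20 weeks without no DEN rat H14 or H15 (adjusted p up to 0.0581). With every gene that had a count kept in the fit, its 5 calls had an edgeR adjusted p of at most 0.0216. Ugt1a2 rose at 14 weeks, from 0.308 to 0.766 CPM in no DEN liver to 1.29 to 4.58 CPM in NT and 0.667 to 5.30 CPM in tumors, a log2 fold change of 2.60 ± 0.407 and 2.85 ± 0.604. With every gene that had a count kept in the fit, its edgeR adjusted p was 0.000451 in NT and 0.00355 in tumors. The tumors of rat F06, at 0.667 CPM, lay within the no DEN range. At 20 weeks Ugt1a2 was not called in NT (0.96 ± 0.712, adjusted p = 0.348) or tumors (1.54 ± 0.623, adjusted p = 0.0592), and no DEN rat H15 had 3.33 CPM where the other 3 had 0.331 to 0.483 CPM.

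In the DEN groups the rats numbered F were set beside the rats numbered H, and the members' shares were near those of all genes. Part of each share arises whichever rats are picked, since some rat is always the lowest and another the highest of a group. How large that part is was not computed, so the shares alone do not show how far the rats numbered F stood apart. At 8 weeks the 2 rats numbered F lay outside the 2 numbered H, all below or all above them, for 15 of the 23 members with values in every group (65.2%), against 55.3% of all tested genes. The single rat numbered F was the lowest or the highest of its group for 18 members in NT (78.3%, against 67.4% of all genes) and 19 in tumors (82.6% against 85%) at 14 weeks, and for 10 in NT (43.5% against 51.4%) and 14 in tumors (60.9% against 60.8%) at 20 weeks. Ugt1a6 and Ugt1a2 were lower in the rats numbered F than in all others in each of the 5 DEN groups. Since no DEN groups hold no rat numbered F, what the letter stands for and DEN cannot be told apart in these rats. Without them Ugt1a6 and Ugt1a7c were still called in all 5 comparisons, with log2 fold changes of 1.93, 3.84 and 2.77 for Ugt1a6 in NT and 4.13 and 3.56 in tumors. The members called were then 10, 15 and 10 in NT at 8, 14 and 20 weeks and 16 and 17 in tumors, where 17.8%, 34.7%, 16.4%, 41.5% and 37.1% of all genes were called.

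**Figure D2:**
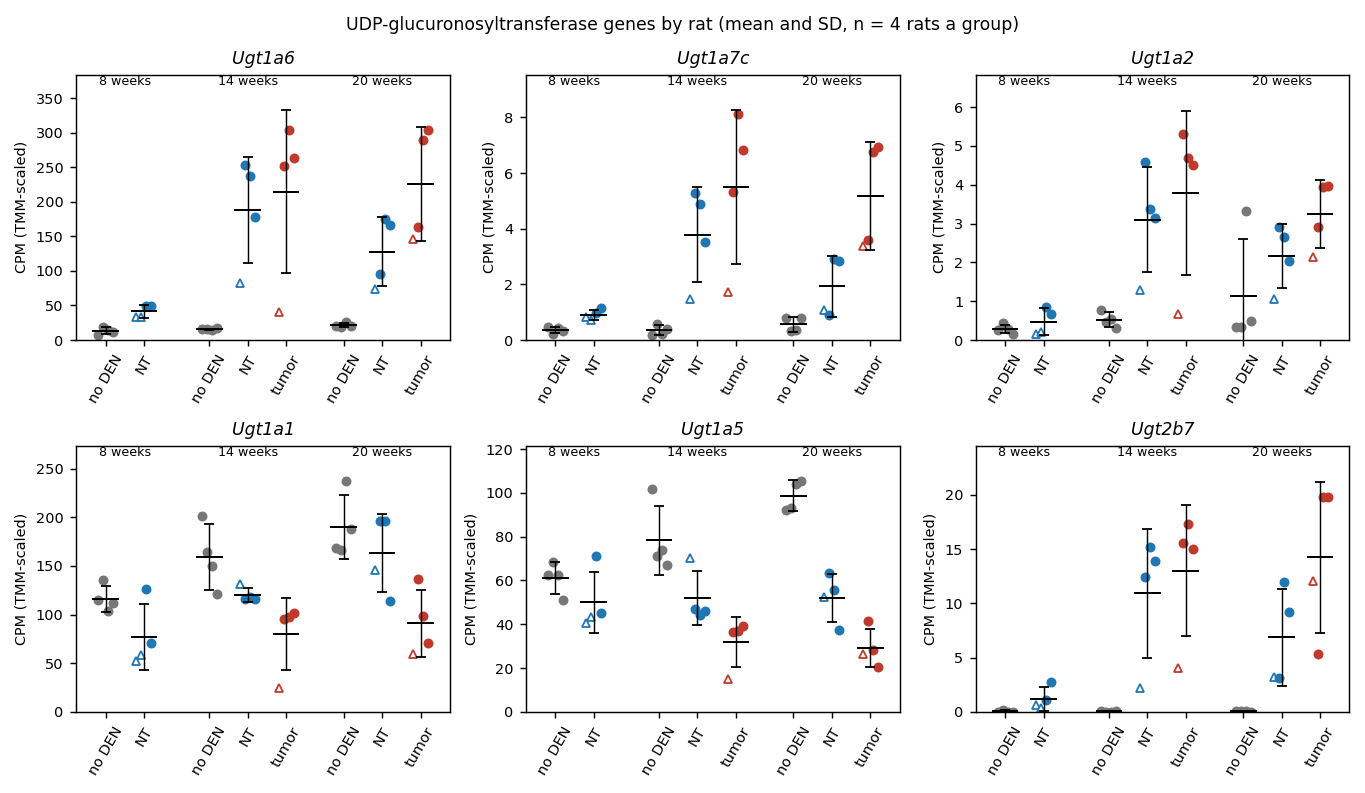
TMM-scaled CPM (vertical axis) of 6 Ugt genes in each rat of the 8 groups (horizontal axis), where circles are rats numbered H, open triangles rats numbered F, bars the mean and SD of 4 rats. Ugt1a6, Ugt1a7c and Ugt2b7 stand above no DEN liver in every DEN group, while Ugt1a5 in tumors lies below all no DEN rats.

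Ugt1a1 and Ugt1a5 went the other way. Ugt1a1, the enzyme that conjugates bilirubin, had 121, 150, 164 and 202 CPM in no DEN liver at 14 weeks, 116, 116, 118 and 131 CPM in NT and 24.6, 95.2, 97.7 and 101 CPM in tumors. At 20 weeks it had 166 to 237 CPM in no DEN liver, 114 to 196 CPM in NT and 58.9 to 136 CPM in tumors. The tumor values lay below all no DEN rats at both weeks, with a log2 fold change of -1.02 ± 0.372 at 14 weeks and -1.04 ± 0.248 at 20 weeks (edgeR, adjusted p = 0.0458 and 0.00581). The 14-week call is weak and was lost under 11 of 16 other settings (adjusted p up to 0.308). That at 20 weeks was lost with nodule 2 alone (edgeR, adjusted p = 0.0556). In NT Ugt1a1 was not called at any week, its largest difference being -0.58 ± 0.259 on the log2 scale at 8 weeks (adjusted p = 0.109).

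Ugt1a5 fell in both tissues at 14 and 20 weeks. It had 67.1, 71.3, 73.7 and 102 CPM in no DEN liver at 14 weeks, 44.4, 46.3, 46.8 and 70.3 CPM in NT and 15.1, 36.6, 36.8 and 39.1 CPM in tumors. At 20 weeks the values were 92.2, 92.9, 104 and 105 CPM in no DEN liver, 37.2, 52.6, 55.5 and 63.4 CPM in NT and 20.6, 26.3, 28.3 and 41.5 CPM in tumors, without overlap between DEN and no DEN rats. Its log2 fold change was -0.91 ± 0.133 in NT at 20 weeks (edgeR, adjusted p = 0.0012), and -1.32 ± 0.266 and -1.73 ± 0.196 in tumors at 14 and 20 weeks (adjusted p = 0.00308 and 0.000131). The call in NT at 14 weeks (-0.57 ± 0.175, adjusted p = 0.0207), where rat F06 lay within the no DEN range, was lost under 5 of 14 other settings. Ugt1a3 was counted at a group mean of 0.613 to 1.23 CPM and was not called in any comparison with no DEN liver.

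Thus Ugt1a6 and Ugt1a7c rose while Ugt1a1 and Ugt1a5 fell, and all 4 are spliced to the same downstream exons. The sequence before the start is shown for the 2 isoforms that rose in every comparison, since each isoform has a start of its own. It is given as the 250 bases before the RefSeq start in the rat build GRCr8, 5′ to 3′ on the gene's strand, both on the plus strand (chr9:96187132-96187381 for Ugt1a7c and chr9:96194768-96195017 for Ugt1a6). Capitals mark GCGTG, the core letters of the element bound by the aryl hydrocarbon receptor, on either strand.
Ugt1a6: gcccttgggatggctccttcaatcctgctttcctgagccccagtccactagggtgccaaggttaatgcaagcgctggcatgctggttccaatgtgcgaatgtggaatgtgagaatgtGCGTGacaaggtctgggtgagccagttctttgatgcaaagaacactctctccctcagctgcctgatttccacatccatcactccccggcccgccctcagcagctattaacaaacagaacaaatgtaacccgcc
Ugt1a7c: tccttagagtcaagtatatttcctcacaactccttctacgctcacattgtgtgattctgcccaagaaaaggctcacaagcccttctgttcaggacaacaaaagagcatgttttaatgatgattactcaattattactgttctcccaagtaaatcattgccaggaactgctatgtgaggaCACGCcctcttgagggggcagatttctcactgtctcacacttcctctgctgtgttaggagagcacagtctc
GCGTG begins 133 bases before the start of Ugt1a6, and its reverse complement covers bases 71 to 67 before that of Ugt1a7c. Promoters of 28 of the 32 genes were matched by symbol (none for Sult4a1, Ugt1a5, Ugt2a1 and Ugt2b17). The 5 letters were found in 6 of these 28, namely Sult2b1, Ugt1a3, Ugt1a6, Ugt1a7c, Ugt1a8 and Ugt8, against 25.9% of all 33469 promoters of the same length. Ugt1a3, which holds them too, was called in no comparison with no DEN liver. GTTAAT, letters of an element bound by hepatocyte nuclear factor 1, was found in 7 of 28 (Sult2a2, Sult2a6, Ugt1a1, Ugt1a2, Ugt1a3, Ugt1a6 and Ugt2a3) against 6.45% of all promoters. TGACNNNGC, letters of the antioxidant response element, was found in 0 of 28 against 10.1% of all promoters. Both strands were read, no match of one motif overlapped a match of another in these promoters, and a match describes letters and not a bound site.

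Ugt2b7 went from almost no reads to a clear level. In no DEN liver each library held 0 to 4 counts, 4 in all at 8 weeks, 4 at 14 weeks and 3 at 20 weeks. NT had 0.334, 0.605, 1.05 and 2.75 CPM at 8 weeks, 2.15, 12.4, 13.9 and 15.2 CPM at 14 weeks and 3.11, 3.17, 9.17 and 12 CPM at 20 weeks. Tumors had 4.06, 15.0, 15.6 and 17.3 CPM at 14 weeks and 5.37, 12, 19.8 and 19.8 CPM at 20 weeks. Every DEN rat lay above every no DEN rat, and at 14 weeks rat F06 was again the lowest in both tissues. The pooled counts were 297-fold higher in NT than in no DEN liver at 14 weeks (95% exact counting interval 116 to 1090) and 256-fold at 20 weeks (87.7 to 1244), and in tumors 366-fold (143 to 1345) and 387-fold (132 to 1878). These intervals cover counting error only. Rat H26 held 1942 of the 2464 counts in NT at 20 weeks, and without it the ratio was 142 (48.5 to 693). The NT library of this rat held 160622633 counted pairs, where the others of that group held 33915562 to 37281326, so the pooled ratio is weighted towards it. No DEN rat H12 held 3 of the 4 counts at 14 weeks, and without it the ratios were 865 (155 to 34196) in NT and 1068 (192 to 42207) in tumors. It reached the filter on low counts through the DEN rats alone and was not tested at 8 weeks, with 139 counts in NT against 4, so the adjusted p of the fit with that filter is not given. With every gene that had a count kept in the fit, its edgeR adjusted p was 0.000959 and 0.00152 in NT and 3.27e-05 and 5.14e-05 in tumors at 14 and 20 weeks. All 4 no DEN counts at 8 weeks came from rat H06, so that without this rat no ratio can be given for 8 weeks.

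Of the other Ugt2 genes 3 were called at least once. Ugt2b15 was not called in any comparison with no DEN liver, and its differences stayed below the fold threshold. It had 539 to 625 CPM in no DEN liver at 14 weeks and 672 to 915 CPM in NT, a log2 difference of 0.47 ± 0.106 (edgeR, adjusted p = 0.00329). Ugt2b1, which conjugates testosterone and morphine in the rat, fell at 20 weeks from 234, 242, 243 and 245 CPM in no DEN liver to 98.8, 144, 154 and 178 CPM in NT and 85.4, 90.1, 100 and 102 CPM in tumors, and no DEN liver overlapped with neither. Its log2 fold change was -0.74 ± 0.145 in NT and -1.41 ± 0.094 in tumors (edgeR, adjusted p = 0.00488 and 1.32e-05). Untreated liver itself differed in Ugt2b1 between 14 weeks (85.6 to 180 CPM) and 20 weeks without overlap, by 0.79 ± 0.21 on the log2 scale, which was not called (edgeR, adjusted p = 0.541), where 3.95% of all genes did not overlap between these ages. Ugt2b10 fell in tumors at 20 weeks from 55.8 to 65.4 CPM to 26.8 to 50.2 CPM (log2 fold change -0.66 ± 0.16, adjusted p = 0.00654), a call lost with all 8 groups in the fit, with nodule 2 alone and with library totals. Ugt2a3 rose in NT at 14 weeks from 50.5 to 67.3 CPM to 70.1 to 96.0 CPM (log2 fold change 0.60 ± 0.111, adjusted p = 0.00111). Ugt2b37 was called in none (group means 29.3 to 47.8 CPM), and neither was Ugt2b (0.73 to 1.25 CPM).

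Among sulfotransferases the Sult2a genes, whose best known member Sult2a1 acts on hydroxysteroids and bile acids, split. Sult2a1 had 250, 275, 367 and 381 CPM in no DEN liver at 8 weeks and 98.9, 130, 138 and 168 CPM in NT. At 14 weeks it had 153, 195, 213 and 327 CPM in no DEN liver, 44.5, 47.8, 52.0 and 52.0 CPM in NT and 31.5, 36.4, 40.6 and 52.7 CPM in tumors. At 20 weeks it had 163, 169, 222 and 240 CPM in no DEN liver, 48.4, 75.8, 82.4 and 96.1 CPM in NT and 28.8, 32.5, 44.1 and 65.7 CPM in tumors. It lay below all no DEN rats in every DEN group, by 2.38-fold in NT at 8 weeks, 4.46-fold at 14 weeks and 2.61-fold at 20 weeks, and by 5.60-fold and 4.83-fold in tumors. The log2 fold changes of Sult2a1 were -1.25 ± 0.177, -2.16 ± 0.214 and -1.38 ± 0.21 in NT (edgeR, adjusted p = 0.000676, 7.07e-05 and 0.00227), and -2.49 ± 0.252 and -2.27 ± 0.261 in tumors.

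Sult2a6 rose in the same samples. It had 8.74, 14.1, 15.9 and 17.3 CPM in no DEN liver at 8 weeks and 30.4, 32.6, 35.8 and 41.9 CPM in NT. At 14 weeks it had 9.08, 18.2, 18.3 and 29.4 CPM in no DEN liver, 55.9, 59.3, 71.7 and 80.8 CPM in NT and 51.7, 56.2, 78.1 and 90.2 CPM in tumors. At 20 weeks, with 26.7 to 40.1 CPM in no DEN liver, 55.7 to 69.8 CPM in NT and 48.3 to 63.8 CPM in tumors, the groups still did not overlap. Its log2 fold changes were 1.34 ± 0.186, 1.85 ± 0.319 and 0.91 ± 0.12 in NT (edgeR, adjusted p = 0.000627, 0.00175 and 0.000703), and 1.87 ± 0.332 and 0.78 ± 0.131 in tumors. Sult2a2 went from 5 to 9 counts per library (0.182 to 0.372 CPM) in no DEN liver at 14 weeks to 2.37 to 3.89 CPM in NT and 2.58 to 5.09 CPM in tumors. Its pooled counts were 10.6-fold higher in NT at 14 weeks (95% exact counting interval 7.35 to 15.8) and 6.22-fold at 20 weeks (4.20 to 9.61), and, with every gene that had a count kept in the fit, its edgeR adjusted p was at most 0.000325 in the 4 comparisons at 14 and 20 weeks.

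The sequences before the starts of Sult2a1 and Sult2a6 are shown because these 2 genes moved in opposite directions and are almost alike there. The 250 bases (RefSeq, GRCr8, minus strand, chr1:84638948-84639197 for Sult2a1 and chr1:84097809-84098058 for Sult2a6) are written 5′ to 3′ on the gene's strand, with capitals at the positions where they differ.
Sult2a1: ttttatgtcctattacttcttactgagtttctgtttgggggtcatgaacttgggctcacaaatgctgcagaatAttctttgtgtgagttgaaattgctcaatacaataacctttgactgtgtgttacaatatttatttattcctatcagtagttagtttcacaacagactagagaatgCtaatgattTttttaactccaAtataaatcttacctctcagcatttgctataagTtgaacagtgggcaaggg
Sult2a6: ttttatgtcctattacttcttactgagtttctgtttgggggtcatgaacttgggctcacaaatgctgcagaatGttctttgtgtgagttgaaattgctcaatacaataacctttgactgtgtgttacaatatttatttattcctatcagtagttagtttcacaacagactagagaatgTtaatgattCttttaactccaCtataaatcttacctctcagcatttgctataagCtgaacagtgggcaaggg
They differ at 5 of 250 bases, 98.0% identity. Sult2a2 was 90.3% identical to Sult2a1 and 92.0% to Sult2a6 over 237 aligned bases. GTTAAT was found in Sult2a6 from base 73 before the start and in Sult2a2 from base 64, but not in Sult2a1, and the 2 sequences differ within those letters. Among the other members with GTTAAT, Ugt1a1 fell in tumors, Ugt1a3 was not called against no DEN liver, and Ugt1a2, Ugt1a6 and Ugt2a3 rose at least once. How alike the Sult2a transcripts themselves are was not measured here, and pairs that matched several places were not counted, so the levels of the 3 Sult2a genes are uncertain.

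**Figure D3:**
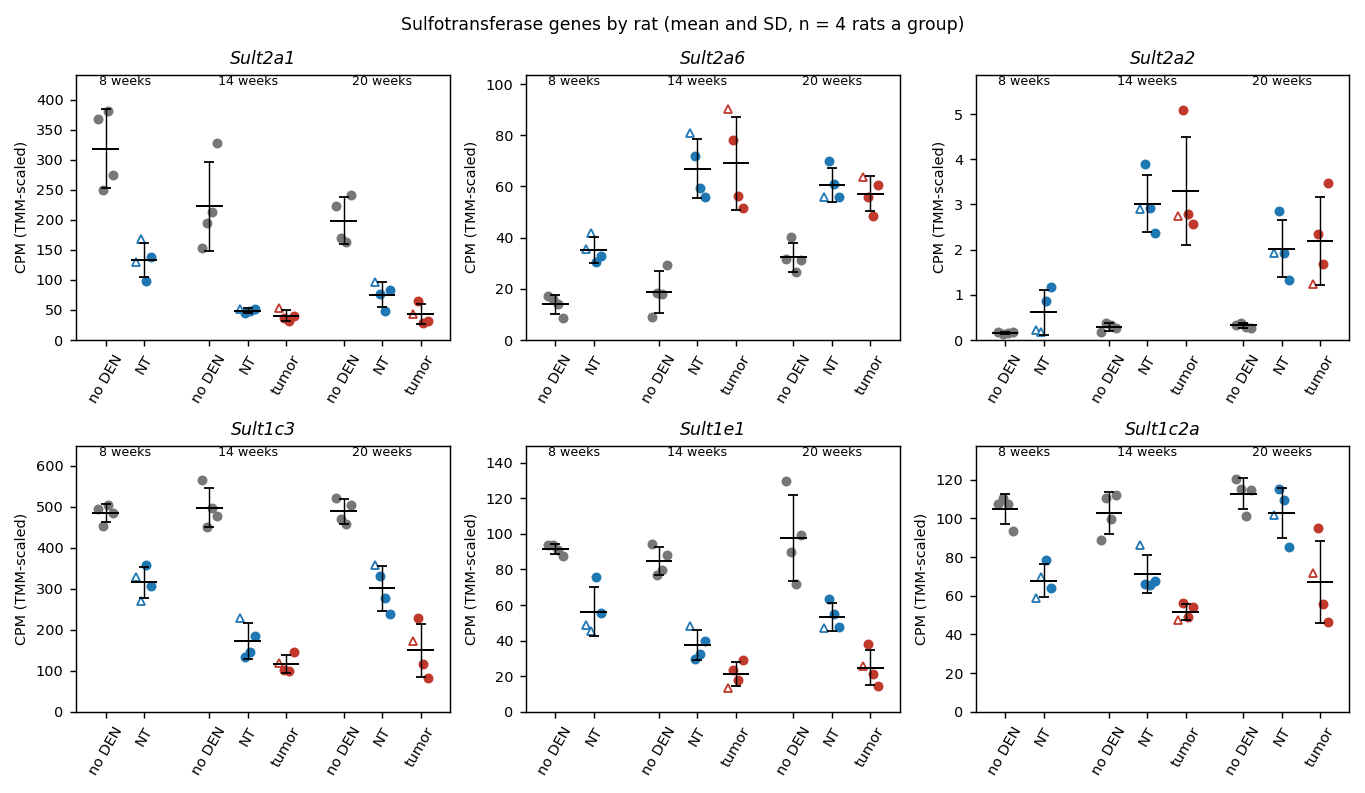
TMM-scaled CPM (vertical axis) of 6 Sult genes in each rat of the 8 groups (horizontal axis), where circles are rats numbered H, open triangles rats numbered F, bars the mean and SD of 4 rats. Sult2a1, Sult1c3 and Sult1e1 lie below and Sult2a6 above no DEN liver of the same week in every DEN group.

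Of the Sult1 genes 5 were called down at least once, and none was called upward in the 5 TMM-scaled comparisons with no DEN liver. Sult1e1, the estrogen sulfotransferase, had 77, 79.8, 88.2 and 94.4 CPM in no DEN liver at 14 weeks, 29.6, 32.4, 39.996 and 48.2 CPM in NT and 13.7, 18, 23.3 and 29.4 CPM in tumors. At 20 weeks it had 71.7, 89.8, 99.3 and 130 CPM in no DEN liver, 47.0, 47.7, 55.2 and 63.4 CPM in NT and 14.5, 21, 25.7 and 38.2 CPM in tumors. The 3 tissues did not overlap at either week and stood in the order no DEN, NT, tumor, where NT and tumors did not overlap for 11.6% of all genes at 14 weeks and 12.3% at 20 weeks. The log2 fold change against no DEN liver was -0.69 ± 0.146, -1.16 ± 0.14 and -0.86 ± 0.162 in NT at 8, 14 and 20 weeks (edgeR, adjusted p = 0.00503, 0.000114 and 0.00444), and -2.03 ± 0.205 and -1.98 ± 0.3 in tumors. At 8 weeks the call was lost without the rats numbered F, where 2 rats remain, and with library totals.

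Sult1c3, of the subfamily known for sulfonating N-hydroxy arylamines, had 451, 478, 497 and 564 CPM in no DEN liver at 14 weeks, 133, 145, 184 and 230 CPM in NT and 98.8, 101, 120 and 147 CPM in tumors. At 20 weeks it had 459, 469, 504 and 522 CPM in no DEN liver, 238, 277, 330 and 359 CPM in NT and 81.2, 116, 173 and 228 CPM in tumors. Again no DEN liver lay above every DEN rat, by 2.84-fold in NT at 14 weeks and 1.61-fold at 20 weeks, and by 4.33-fold and 3.32-fold in tumors. Its log2 fold changes were -0.61 ± 0.0983, -1.51 ± 0.158 and -0.69 ± 0.119 in NT (edgeR, adjusted p = 0.00109, 4.51e-05 and 0.00254), and -2.12 ± 0.144 and -1.73 ± 0.293 in tumors. With library totals the NT values were -0.41 at 8 weeks and -0.48 at 20 weeks, under the fold threshold. The neighbouring Sult1c2 and Sult1c2a fell in NT at 8 and 14 weeks but not at 20 weeks, where Sult1c2a had 101 to 120 CPM in no DEN liver and 85.3 to 115 CPM in NT. In tumors both fell at 14 weeks (Sult1c2 -1.20 ± 0.134, Sult1c2a -1.01 ± 0.0988, edgeR, adjusted p = 0.000118 and 6.29e-05) and at 20 weeks (-0.70 ± 0.239 and -0.76 ± 0.206, adjusted p = 0.0308 and 0.0112). The call of Sult1c2 at 20 weeks was lost under 7 of 16 other settings, and that of Sult1c2a in NT at 14 weeks under 6 of 14. With library totals Sult1c2a was also no longer called in NT at 8 weeks (-0.42) or in tumors at 14 and 20 weeks (-0.44 and -0.30), nor was Sult1c2 in NT at 14 weeks (-0.20), and with nodule 2 alone Sult1c2a was not called at 20 weeks.

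Sult1a1, a phenol sulfotransferase, was called in tumors alone. In NT it also lay below all no DEN rats at 14 and 20 weeks, where 50.6% and 28.3% of all tested genes did not overlap. At 20 weeks it had 695 to 877 CPM in no DEN liver, 551 to 648 CPM in NT and 431 to 631 CPM in tumors. It had 624 to 805 CPM in no DEN liver at 14 weeks, 435 to 584 CPM in NT and 406 to 590 CPM in tumors, and it fell in tumors at 14 and 20 weeks (log2 fold change -0.52 ± 0.153 and -0.57 ± 0.148, edgeR, adjusted p = 0.0195 and 0.00911). With library totals the 14-week value turned to 0.04, and 5 other settings ended that call. The 20-week call was lost with library totals (-0.08, adjusted p = 0.53), without rat H26 and with nodule 1 alone. Sult1b1, which sulfonates thyroid hormones, was higher in every NT rat at 8 weeks (402 to 471 CPM against 268 to 401 CPM) and 14 weeks (371 to 473 CPM against 300 to 351 CPM), by 0.41 ± 0.117 and 0.43 ± 0.0887 on the log2 scale, under the fold threshold. With library totals its mean was 273 CPM in no DEN liver and 415 CPM in NT at 8 weeks. At 14 weeks it was then 262 CPM in no DEN liver, 473 CPM in NT and 529 CPM in tumors, so the size of its rise depends on the scaling. Sult2b1, which acts on cholesterol and pregnenolone, rose in tumors at 20 weeks from 1.71 to 2.82 CPM to 3.75 to 5.91 CPM (log2 fold change 1.20 ± 0.219, adjusted p = 0.00148). Sult5a1 had 2 to 3 counts per library (0.0978 to 0.166 CPM) in no DEN liver and 0.23 to 0.847 CPM in tumors there, reached the filter through the tumors alone, and lost its call without no DEN rat H13, H15 or H16. Sult4a1, best known from brain, was called down in NT at 14 weeks (-2.07 ± 0.499, adjusted p = 0.00831) and in tumors at 20 weeks (-2.02 ± 0.621, adjusted p = 0.0201), but no DEN rats ranged from 3.39 to 17.1 CPM and from 2.55 to 20.3 CPM at these weeks, and the 20-week call was lost without no DEN rat H14 (adjusted p = 0.0548).

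Another 7 members had too few counts for any comparison with no DEN liver, with at most 25 counts in any library. Sult6b1 had 0 counts in all 40 libraries. A single library with 0 would allow an expected count of up to 3, and 0 in all 40 allows less per library. Ugt8, which makes galactosylceramide and not glucuronides, had at most 2 counts and 0 in 32 libraries, Ugt1a8 at most 3 and 0 in 31, Ugt1a9 at most 5 and 0 in 23, and Sult1d1 at most 14 and 0 in 18. Ugt2a1 reached 17 counts (0.215 CPM) and Ugt2b17 reached 25 counts (0.265 CPM). Expression of these 7 was not detectable or not comparable at this depth, and for Ugt1a8 and Ugt1a9 the pairs in the shared exons were not counted.

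The question whether the response changed with time was tested as the interaction of treatment and week. From 8 to 14 weeks of DEN the difference between NT and no DEN liver grew for Ugt1a6 by 1.95 ± 0.445 on the log2 scale (edgeR, adjusted p = 0.0179) and for Ugt1a7c by 2.17 ± 0.631 (adjusted p = 0.0411), became more negative for Sult1c3 (-0.90 ± 0.19, adjusted p = 0.0109) and shifted up for Ugt2b15 (0.45 ± 0.127, adjusted p = 0.0363). These 4 were called of 25 tested members, where 8.96% of all genes were called. The calls of Ugt1a7c and Ugt2b15 were lost under 10 and 12 of 21 other settings, those of Ugt1a6 and Sult1c3 under none. After DEN stopped, between 14 and 20 weeks, 0 of 24 members were called in NT (10 at an unadjusted p under 0.05, which is 41.7% against 17% of all genes, 3 by DESeq2, and 0.738% of all genes called), with the smallest adjusted p of 0.0763 for Sult1c3 (0.82 ± 0.211), and without rat F06 4 were called, where the calls over all genes went from 83 to 386. In tumors 0 of 25 were called (3 at an unadjusted p under 0.05, 12% against 3.26% of all genes, 0 by DESeq2, 0.0862% of all genes called). Of the 14 members called in NT at 14 weeks, 9 (64.3%) were also called at 20 weeks in the same direction, which is 90.0% of the 10 called then, and all 8 called at 8 weeks were called at 14 weeks. Over all genes the first share was 47.7%, the second 87.5%, and 79.6% of the genes called at 8 weeks were called at 14 weeks in the same direction. Between ages in no DEN liver 0 of 22 members were called from 8 to 14 weeks (4 at an unadjusted p under 0.05, 18.2% against 9.9% of all genes, 0 by DESeq2) and 0 of 22 from 14 to 20 weeks (7, 31.8% against 6.42%, and 1 by DESeq2), where edgeR called 0% of all genes in both.

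Tumors and NT of the same rats were compared next. Unpaired, edgeR called 0 of 25 members at 14 weeks (6 at an unadjusted p under 0.05, 24% against 11.8% of all genes, 0 by DESeq2) and 0 of 25 at 20 weeks (12, 48% against 24%, and 7 by DESeq2), with 0% of all genes called at both weeks. Each pair of nodules has NT of its own rat beside it, and with the rat as a block 15 of 25 were called at 20 weeks, 5 up and 10 down, where 14.7% of all genes were called (9.21% up and 5.46% down), and 0 at 14 weeks, where none of all genes was called. Ugt1a6 was higher in the tumors of each of the 4 rats at 20 weeks by 0.73 to 0.98 on the log2 scale (blocked log2 fold change 0.84 ± 0.0895, adjusted p = 3.49e-05), and Ugt1a7c by 1.21 to 1.99 (1.46 ± 0.143, adjusted p = 1.77e-05). Ugt2b7, Sult2b1 and Ugt1a2 were the other 3 that rose, by 1.05 ± 0.159, 0.63 ± 0.147 and 0.63 ± 0.18 (adjusted p = 0.00156, 0.0066 and 0.0211). The 10 that fell were Ugt1a1 (-0.86 ± 0.113), Ugt1a3 (-1.03 ± 0.222), Ugt1a5 (-0.84 ± 0.0807), Ugt2b1 (-0.64 ± 0.106), Ugt2b10 (-0.64 ± 0.0856), Sult1c2 (-0.82 ± 0.108), Sult1c2a (-0.68 ± 0.118), Sult1c3 (-1.14 ± 0.17), Sult1e1 (-1.20 ± 0.204) and Sult2a1 (-0.92 ± 0.211). Sult2a6 and Sult2a2, which were up against no DEN liver, were not called between tumors and NT (-0.13 ± 0.0915 and 0.06 ± 0.327).

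At 14 weeks 11 of the 25 tested members were lower and 3 higher in the tumors of all 4 rats, where 20.6% of all tested genes were lower and 21% higher. At 20 weeks 11 were lower and 5 higher, against 21.5% and 23.5% of all genes. The tumors of rat F06 had 24.6 CPM of Ugt1a1 against 131 CPM in its NT, a log2 ratio of -2.42 where rats H21, H22 and H23 had -0.28, -0.27 and -0.20, and 40.4 CPM of Ugt1a6 against 83.2 CPM. Its 2 nodules also differed, with 7.47 and 41.7 CPM of Ugt1a1 and 4.75 and 25.5 CPM of Ugt1a5, a ratio of 5.59 and 5.37, where the median ratio over the 4 rats was 1.15 for both.

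**Figure D4:**
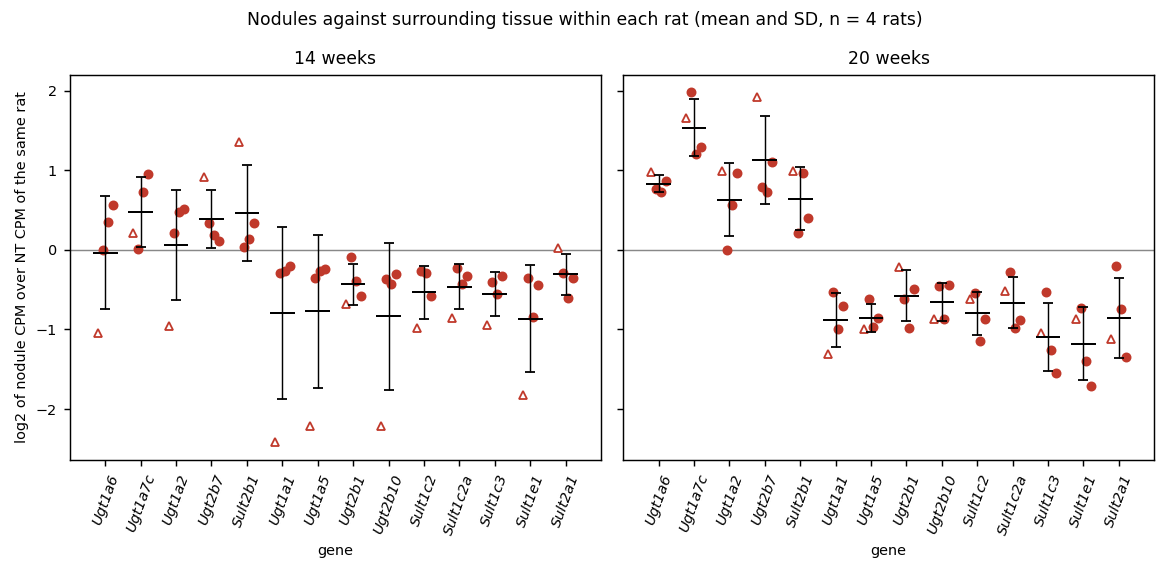
Log2 ratio of the mean nodule CPM to the NT CPM of the same rat (vertical axis) for 14 Ugt and Sult genes (horizontal axis) at 14 and 20 weeks, where circles are rats numbered H, open triangles rats numbered F, bars the mean and SD of 4 rats. At 20 weeks every rat lies above 0 for Ugt1a6, Ugt1a7c, Ugt2b7 and Sult2b1 and below 0 for the genes from Ugt1a1 to Sult2a1, whereas at 14 weeks rat F06 is far below the others for Ugt1a1, Ugt1a5 and Ugt2b10.

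Of 14 listed genes that supply the donors or remove the conjugates, 13 were found (Slc35b3 was not analysed here). Ugdh, which makes UDP-glucuronate, rose in NT at 14 weeks (1.72 ± 0.317, edgeR, adjusted p = 0.00223) and 20 weeks (1.16 ± 0.177, adjusted p = 0.0018) and in tumors (1.98 ± 0.316 and 2.01 ± 0.231), but not at 8 weeks (0.02 ± 0.0979). The 2 PAPS synthases parted. Papss1 rose in all 5 comparisons by 0.65 ± 0.134 to 1.39 ± 0.145, and Papss2 fell in all 5 by 0.69 to 0.98 on the log2 scale. Suox, which oxidises sulfite to sulfate, fell in both tissues at 14 and 20 weeks (-0.65 ± 0.0847 to -1.27 ± 0.141), and the sulfate carrier Slc26a1 fell in NT at 14 weeks (-0.76 ± 0.13) and in tumors (-0.97 ± 0.123 and -0.90 ± 0.144). Steroid sulfatase Sts fell in tumors at 14 weeks (-0.53 ± 0.0856), and the other 7 (Bpnt1, Gusb, Impad1, Slc35b2, Slc35d1, Slc35d2 and Ugp2) were called in none of the 5. In counts, 1 rose and 1 fell of 12 tested in NT at 8 weeks, 2 and 3 of 13 at 14 weeks, 2 and 2 of 12 at 20 weeks, and 2 and 4 and 2 and 3 of 13 in tumors at 14 and 20 weeks. These are 16.7%, 38.5% and 33.3% of those tested in NT and 46.2% and 38.5% in tumors, beside the 21.7%, 32.6%, 18.1%, 39.1% and 38.8% of all genes given above, and nothing is read from them about the set.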

How the data were processed

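The deposited files hold raw read counts per gene, one file a library, which the authors made from stranded, paired reads of 75 bp with STAR 2.7.1a and HTSeq, counting only pairs that lay wholly within 1 gene and aligned to 1 place of the rat genome rn6. The summary lines for unassigned pairs were left out of library sizes. Counts were tested with edgeR 4.0.16 (R 4.3.3, limma 3.58.1): filterByExpr, TMM scaling, a robust quasi-likelihood fit of the groups compared, nodules of a rat summed, and Benjamini-Hochberg adjustment over all genes tested. For interactions an adjusted p up to 0.05 was called, whatever the size. Standard errors were taken from the log2 fold change and its F value. Scripts were tested on simulated data. The labels number the rats but do not state how they were housed or processed in batches, so p-values measure the spread between the rats sampled. Members were matched to RefSeq by symbol (31 of 32), and promoter sequences are those of RefSeq for GRCr8, which is not the build of the counts.

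Nodules and NT with the same number come from the same rat. Their deviations from the group means correlated in every rat, with r of 0.391 to 0.655 across genes, so the fit with the rat as a block is given beside the unpaired fit. Values in every group were given for members called in at least 1 of the 5 comparisons with no DEN liver or with a median of at least 10 CPM (23 members). The members, the companion genes and the cell type markers were chosen with earlier results of these data known. Alternatives were DESeq2 1.42.0, leaving out each rat, RLE scaling, keeping genes with low counts, all 8 groups in the fit, leaving out the rats numbered F, single nodules, a stricter threshold and, chosen after seeing the data, library totals without TMM and ratios of pooled counts without each rat. Intervals of count ratios are exact 95% intervals.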

Additional observations from a re-analysis of the deposited data

Results flagged for a closer look

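Of 184 groups of 4 rats tested, 14 had a rat set apart from the other 3 by more than Dixon's 95% critical value, where chance gives about 1 in 20, or 9.2. Rat F06 was that rat in 6 of them. In its NT at 14 weeks it had 86.1 CPM of Sult1c2a (the others 65.7 to 67.9 CPM), 131 CPM of Ugt1a1 (116 to 118 CPM) and 70.3 CPM of Ugt1a5 (44.4 to 46.8 CPM). In its tumors it had 24.6 CPM of Ugt1a1 (95.2 to 101 CPM), 15.1 CPM of Ugt1a5 (36.6 to 39.1 CPM) and 0.667 CPM of Ugt1a2 (4.51 to 5.30 CPM). It was thus the highest of its group in NT and the lowest in tumors for both Ugt1a1 and Ugt1a5.

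The other 8 came from 8 rats. Rat H21 had 5.09 CPM of Sult2a2 in tumors at 14 weeks (the others 2.58 to 2.80 CPM), H14 had 2.82 CPM of Sult2b1 in no DEN liver at 20 weeks (1.71 to 1.86 CPM), and H15 had 3.33 CPM of Ugt1a2 there (0.331 to 0.483 CPM). Rat H17 had 70.9 CPM of Ugt1a5 in NT at 8 weeks (40.7 to 45.0 CPM), F10 had 676 CPM of Ugt2b15 there (598 to 603 CPM), and H26, whose NT library was the deepest, had 58.5 CPM of Ugt2b37 in NT at 20 weeks (42.1 to 44.6 CPM). For Ugt2b7 in no DEN liver the differences amount to a few reads, with 0.176 CPM in H06 at 8 weeks (the others 0) and 0 CPM in H16 at 20 weeks (0.0489 to 0.0552 CPM).

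The response in NT differed between 8 and 14 weeks by the interaction test for 4 members, by 1.95 for Ugt1a6, 2.17 for Ugt1a7c, 0.45 for Ugt2b15 and -0.90 for Sult1c3 on the log2 scale.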

How the results depend on the processing

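The 68 calls of single members were recomputed under every alternative that could be fitted, which gave 976 values still called in the same direction, 93 no longer called and 1 reversed. The reversed call was that of Sult1a1 in tumors at 14 weeks with library totals (0.0405). Ugt2b37, not called there, also changed sign with library totals (0.56 against -0.02). With a threshold of 1 on the log2 scale and 0.01 for the adjusted p, 4 members were called in NT at 8 weeks and 4 at 20 weeks, against 855 and 565 of all genes. Between tumors and NT at 20 weeks, where 0 were called, DESeq2 called 7 (902 of all genes), all 8 groups in the fit 8 (1096), nodule 1 alone 3 (218), the replicate block 15 (1693), and leaving out 1 rat 0 to 3 (0 to 445), with 3 without rat H25 (445). At 14 weeks the replicate block called 0 and changed no call. For the change of the NT response from 8 to 14 weeks, DESeq2 called 8 members (1529 of all genes against 1005), and leaving out 1 rat 2 to 8 (533 to 1870), with 8 without H17 (1870), 7 without F06 (1760) and 2 without F09 (595). For the change from 14 to 20 weeks, DESeq2 called 3 (381 of all genes against 83), library totals 1 (144), leaving out the rats numbered F 1 (182), and leaving out 1 rat 0 to 4 (31 to 408), with 4 without F06 (386). Between no DEN liver at 14 and 20 weeks DESeq2 called 1 (18 of all genes). Leaving out 1 rat gave 8 to 10, 12 to 15 and 9 to 11 members in NT against no DEN liver at 8, 14 and 20 weeks, and 12 to 16 and 15 to 18 in tumors, where 1914 to 2913, 3401 to 3867, 1403 to 2111, 4006 to 4686 and 3869 to 4671 of all genes were called. Ugt2b7, Sult2a2, Sult5a1 and Ugt1a7c rest on few counts in no DEN liver, which limits the size of their fold changes.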
